A study of Mus musculus with 2 samples.

Results

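The myogenic cells of the interscapular brown adipose tissue (iBAT) culture were 187 of 28215 filtered iBAT cells, or 0.663% (95% exact binomial interval 0.571 to 0.764%). They were selected on raw counts of unique molecular identifiers (UMIs, 1 per captured transcript): at least 3 UMIs over Myod1, Myog and Chrna1 together, called the 3-gene sum here, and 0 UMIs of Pdgfra. Those 4 genes therefore describe the selection and are no result of it. The study asked how fibroblast growth factors (FGFs) act on preadipocytes, the fibroblast-like precursors of fat cells. Stromal vascular cells, the cells left when fat tissue is digested and the fat cells are removed, came from the pooled tissue of wild-type C57BL/6N mice of 8 to 12 weeks per the labels, while the study's methods give a narrower range of ages. They were cultured to 80% confluency and, by the same labels, left untreated or exposed during 48 h to 5.5 nM of FGF1, of FGF2 or of FGF8. FGF8 is not among the treatments that the study's methods list for this experiment. There was 1 library for iBAT and 1 for inguinal white adipose tissue (iWAT), with 57959 filtered cells in all, and each pooled the 4 treatments without a treatment label per cell in the files used here. No treatment was compared, cells of 1 library are not replicates, and no test was made. All intervals below are 95% intervals for counting error only.

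Skeletal muscle forms from precursors that pass through an ordered program. Satellite cells, the resident stem cells of muscle, carry the transcription factor Pax7. When they are activated they express Myod1, divide as myoblasts, then switch on Myog, leave the cell cycle, fuse into multinucleated myotubes and build sarcomeres, the contractile units. Brown adipocytes and skeletal muscle share an embryonic origin in the somite, and both are rich in mitochondria, so several genes of oxidative metabolism are used by both tissues.

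Promoter sequence is shown for genes of the selection and for a receptor gene of the same complex, since MyoD family proteins bind the E-box motif CANNTG. The windows run from 250 bases before to 50 bases after the gene start on the gene's own strand and come from the RefSeq table of build GRCm38.p6. That is not mm39, the build in the submitters' processing notes, so the windows were matched by symbol, which succeeded for 3 of the 5 genes looked up (Myog, Chrna1, Chrng, Chrnd and Mymk). Capitals mark every CANNTG, which reads the same pattern on both strands. They lie at chr1:134289754-134290053 (plus strand) for Myog, the transcription factor of terminal differentiation, at chr2:73580289-73580588 (minus strand) for Chrna1, the alpha subunit of the muscle acetylcholine receptor, and at chr1:87205561-87205860 (plus strand) for Chrng, its fetal gamma subunit.
Myog: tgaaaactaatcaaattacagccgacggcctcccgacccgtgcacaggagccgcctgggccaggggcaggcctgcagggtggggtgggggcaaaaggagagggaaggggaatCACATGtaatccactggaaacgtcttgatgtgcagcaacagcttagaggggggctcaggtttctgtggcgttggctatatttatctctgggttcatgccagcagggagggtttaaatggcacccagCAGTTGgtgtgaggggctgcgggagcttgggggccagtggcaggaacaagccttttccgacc
Chrna1: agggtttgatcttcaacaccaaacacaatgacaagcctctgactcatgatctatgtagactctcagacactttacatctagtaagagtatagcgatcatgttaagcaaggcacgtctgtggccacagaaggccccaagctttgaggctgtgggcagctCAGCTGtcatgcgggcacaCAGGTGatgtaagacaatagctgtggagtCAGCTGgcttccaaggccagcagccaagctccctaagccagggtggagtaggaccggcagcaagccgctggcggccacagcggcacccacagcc
Chrng: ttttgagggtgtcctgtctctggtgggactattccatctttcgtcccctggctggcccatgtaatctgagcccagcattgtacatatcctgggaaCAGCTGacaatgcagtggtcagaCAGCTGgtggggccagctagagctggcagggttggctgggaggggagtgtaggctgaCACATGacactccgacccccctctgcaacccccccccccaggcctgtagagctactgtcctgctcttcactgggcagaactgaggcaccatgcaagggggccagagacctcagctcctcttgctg
The Myog window held 2 E-boxes, the first base of each at positions -138 and -12 from the gene start, and the Chrna1 and Chrng windows held 3 each. In both receptor genes 2 of the 3 had the form CAGCTG, which is contained in CANNTG. Of 32851 promoter windows of the same length in the table, 72.3% held at least 1 CANNTG and 17.6% held 3 or more, whereas 16.3% held CAGCTG and 1.9% held it 2 or more times. A single form of the MEF2 motif, CTA and TAG with 4 free bases between them, was searched on both strands. It occurred in 3.69% of all windows and matched none of the 3 shown. Other forms of the motif were not searched, so this does not show that the windows lack a MEF2 site. These matches describe letters in a window and not binding.

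The 3-gene sum, on which the selection rests, had an uneven distribution. Among the 2288 filtered iBAT cells without a Pdgfra UMI, 1932 had a sum of 0, 145 had 1, 24 had 2, 13 had 3 to 9 and 9 had 10 to 19. Above that the counts per bin increased again, to 15 cells at 20 to 39, 22 at 40 to 79, 81 from 80 to under 160 and 47 at 160 or more. These bins widen with the sum. Per UMI of bin width the counts fell from 3 to 9 through 40 to 79, and were higher again only from 80 to under 160. The myogenic cells had a median sum of 114 UMIs (lowest 3, highest 418). Chrna1 was counted in 187 of them with a median of 34 UMIs per cell, Myod1 in 168 with a median of 13, and Myog in 155 with a median of 55.

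**Figure D1:**
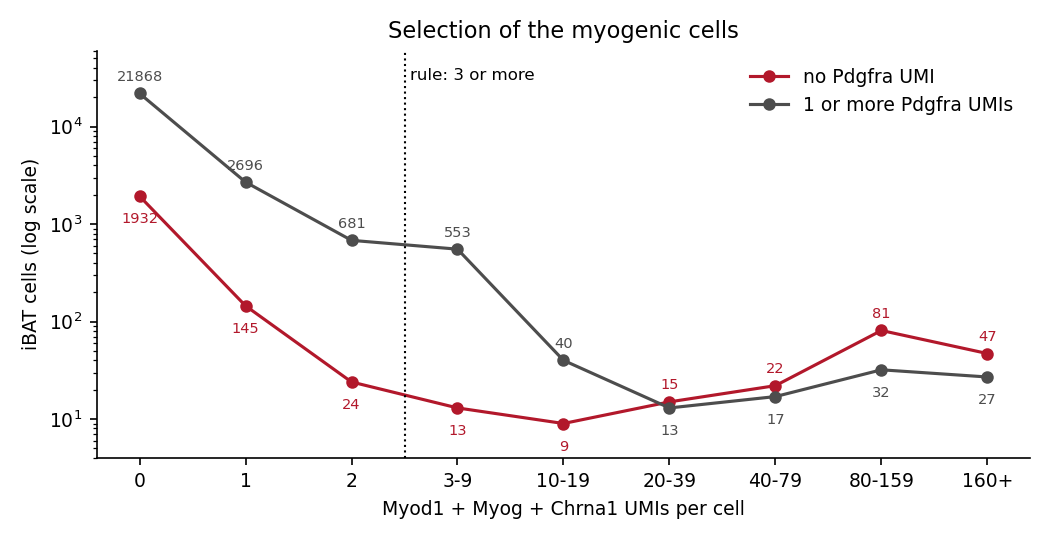
Number of filtered iBAT cells (y axis, log scale) by the summed UMIs of Myod1, Myog and Chrna1 in a cell (x axis), for cells with 0 Pdgfra UMIs (red) and with 1 or more (grey). The dotted line marks the selection at 3 UMIs. Counts per bin dip at intermediate sums, to 9 cells at 10 to 19 UMIs in red and 13 cells at 20 to 39 in grey. They have a second maximum from 80 to under 160 UMIs, of 81 and 32 cells. The bins widen along the x axis. Per UMI of width the red counts fell through the bin of 40 to 79 and rose at 80 to under 160. The grey counts per UMI fell throughout, so their dip and second maximum are ones of bin width.

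The cells nearest the selection limit carried little of the muscle program. Of the 13 with a sum of 3 to 9, 11 had UMIs of Chrna1 and of neither other gene. Over these 13 cells Des, which encodes the muscle intermediate filament desmin, had 15.7 counts per 1000000 UMIs (CPM), and Mymk and Myh3 had 0 UMIs, whereas Col1a1, the main fibroblast collagen, had 1819 CPM. The 24 cells just outside the limit, with a sum of 2, had 1.64 CPM of Des and 5341 CPM of Col1a1. Most of the 13 therefore lacked support for the name myogenic, although 1 cell held all 6 Des UMIs and another both Pax7 UMIs. Results that turn on the 13 are also given for the 174 cells with a sum of 10 or more, which still held 4 of the 15 members with Chrna1 alone.

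A second set of cells had UMIs of the 3 genes and of Pdgfra together. Of the 25927 Pdgfra-positive cells, 682 had a 3-gene sum of 3 or more, 553 of them a sum of 3 to 9, and 76 had 40 or more. Of the 76, 35 had just 1 Pdgfra UMI, which is weak evidence of a stromal program. These 76 cells carried a median of 2 Pdgfra UMIs against 6 over all Pdgfra-positive cells, and their Mymk level was 1385 CPM and their Col1a1 level 2125 CPM. Scrublet, which scores how much a barcode resembles a simulated mixture of cells, called 18 of the 76 doublets (23.7%, 14.7 to 34.8%), against 2 of the 187 myogenic cells (1.07%) and 346 of all Pdgfra-positive cells (1.33%). By the selection, a mixture of a myogenic and a Pdgfra-positive cell falls outside the members, so this contrast was set in advance. Scrublet called 1.25% of all filtered iBAT cells at an expected rate of 0.08, so a low share does not show that the members were single cells. The 76 cells were not members, but they held part of the library's muscle RNA. Of all Acta1 UMIs in the iBAT library, 52.5% were in the myogenic cells and 22.3% in these 76, and for Mb 74.2% and 21.5%. For Myog the shares were 62.3% and 34.6%, but both sets were cut on UMIs of Myog among the 3 genes. Its shares therefore follow from the selection.

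In the iWAT library 40 of 29744 filtered cells met the same selection. In 35 of them, with sums of 3 to 9, Chrna1 was the sole gene of the 3 with UMIs, and Mymk had 0 UMIs. The other 5 had sums of 10 or more, to which Myog, counted in 5 of 5 cells, gave 225 UMIs in all. Outside the selecting genes, Mymk was counted in 5 of 5 with 94 UMIs and Ttn in 5 of 5 with 381 UMIs. Pax7 had 0 UMIs in all 40. No myogenic cell shared its barcode index with an iWAT cell, but just 8 of the 28636 iBAT indices occurred in both libraries. With so few shared indices, this cannot bear on carry-over between the libraries. Depot and culture cannot be told apart here, since each depot is 1 library.

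The myogenic cells were shallower than the Pdgfra-positive cells and had more mitochondrial RNA, and the part of this in the results was not tested. Their median was 20079 UMIs (lowest 11012, highest 44270), 4632 genes and 12.6% mitochondrial UMIs, against 27838 UMIs, 5825 genes and 6.43% in the Pdgfra-positive cells. Markers of other cell types were low in most of them. The summed immune and endothelial markers were at 0 CPM in the median cell but reached 13965 and 5448 CPM in the highest. Few cells carried the highest sums, since 2 myogenic cells met a macrophage rule (3 or more UMIs over Ptprc, Csf1r and Adgre1) and held 574 of the 581 Lyz2 UMIs of all 187, and 2 met the like rule for endothelial cells (Pecam1, Cdh5 and Kdr). By the like rule for mural cells (Rgs5, Kcnj8 and Abcc9) 21 were counted, with Abcc9, a potassium channel subunit that muscle also expresses, at 49.1 CPM against 7.25 CPM and Kcnj8 and Higd1b at 0 UMIs. Also, of 7 Schwann markers Erbb3 was 4-fold or more higher at 68.3 CPM, while Sox10 had 4 UMIs. The summed stromal markers had a median of 707 CPM per cell, with a range from 48.2 to 15682 CPM, against a median of 11272 CPM in Pdgfra-positive cells.

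The myogenic cells carried the RNA of a nearly complete contractile apparatus. For the comparison the UMIs of the 187 cells were summed and set against the sum over the 25927 Pdgfra-positive cells, for 4152 genes with 50 CPM or more in at least 1 of both, the 4 selecting genes left out. The number of genes 4-fold or more higher was 322 (7.76%), and 212 (5.11%) were 4-fold or more lower, with a median log2 ratio of -0.17 over all 4152. Without the cells of sums 3 to 9 the counts were 354 and 338 of 4200 tested, so the number of lower genes rested in part on those 13 cells. A gene under 50 CPM in 1 of both groups entered through the other alone, which fixed its direction, so counts are also given without the limit over the whole list, for genes with more than 3 UMIs in the higher group. Of 33 sarcomere genes tested, 30 were 4-fold or more higher and none lower, with a median log2 ratio of 8.18. All 30 had entered through the myogenic cells alone, and without the limit 31 of the 36 listed were 4-fold or more higher. The 3 others tested were Tpm1, Tpm2 and Cryab, which non-muscle cells also use: Tpm1 stood at 2068 CPM against 1394 CPM, 1.48-fold higher. Summed over the 36 listed genes the level was 54543 CPM against 2723 CPM. The size of such ratios rested in part on the 76 Pdgfra-positive cells with a 3-gene sum of 40 or more, which stayed in the comparison. A comparison with the Pdgfra-positive cells with a 3-gene sum of 0 was added after seeing the data. In it the median log2 ratio of the sarcomere genes was 9.74, and 323 of 4155 genes tested were 4-fold or more higher.

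Single cells showed how unevenly these genes were carried. Acta1, skeletal alpha-actin (chr8:124618501-124623661 on mm39), was counted in 133 of the 187 cells, with a median of 11810 CPM and a highest value of 30511 CPM. Its summed level was 9542 CPM (9445 to 9641) against 42 CPM in Pdgfra-positive cells, 227-fold higher (224 to 231), and 21.7 CPM in those with a 3-gene sum of 0. The cardiac alpha-actin Actc1, which developing skeletal muscle also expresses, had 5057 CPM against 15.6 CPM. Reads of such near-identical paralogs, the actins and the myosin heavy chains among them, may have been split between genes, and how the counting treated them is not given in the sources used here. The fast myosin light chain gene Mylpf stood at 9328 CPM against 24.9 CPM, and Ttn, the giant spring protein titin, at 1834 CPM against 5.44 CPM with a highest single-cell value of 48136 CPM.

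The myosin heavy chains covered embryonic, perinatal and adult isoforms. Embryonic Myh3 had 1510 CPM (1471 to 1549) with UMIs in 128 cells, and perinatal Myh8 had 172 CPM with UMIs in 97. Among the adult isoforms, Myh1, the fast IIx chain, had 731 CPM (704 to 759) against 1.63 CPM in Pdgfra-positive cells, 449-fold higher (420 to 481), and 0.203 CPM in those with a 3-gene sum of 0. Its median single-cell level was 273 CPM and its highest 8163 CPM. The slow chain Myh7 had 50.4 CPM, and Myh2 and Myh4 had 19.2 and 8.41 CPM and were below the limit of 50 CPM, as were their levels of 0.0565 and 0.0578 CPM in Pdgfra-positive cells.

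Genes that couple the nerve signal to contraction were part of the program. Of 10 acetylcholine receptor and endplate genes 7 reached 50 CPM, each through the myogenic cells alone, so that their direction followed from the limit (median log2 ratio 6.94), and without the limit 8 of the 10 were 4-fold or more higher. The list shares its receptor with the selecting gene Chrna1. The fetal gamma subunit Chrng had 738 CPM (711 to 765) against 1.94 CPM, 380-fold higher, while the adult epsilon subunit Chrne had 3 UMIs in all. The delta subunit Chrnd had 154 CPM against 0.35 CPM. The organisers of the endplate were present as well, with Dok7, the activator of the receptor kinase, at 88 CPM, Rapsn, which clusters the receptors, at 69.3 CPM, and Musk, the receptor kinase itself, at 52.3 CPM. Of 15 genes of excitation and calcium handling 12 reached 50 CPM, again each through the myogenic cells alone (median log2 ratio 7.73), and without the limit 14 were 4-fold or more higher. They included Ryr1, the calcium release channel, at 180 CPM, Atp2a1, the fast-muscle calcium pump, at 1060 CPM, and both calsequestrins, Casq1 at 609 CPM and Casq2 at 752 CPM. Casq1 was carried by 84 of the 187 cells.

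Among 12 tested genes of myoblast fusion, 6 were 4-fold or more higher and none lower, and the 6 had reached 50 CPM through the myogenic cells alone. The pair of muscle-specific fusion proteins led them. Mymk, myomaker (chr2:26951627-26962228), had 1569 CPM (1529 to 1609) against 4.09 CPM and was counted in 146 cells, with a median of 1812 CPM and a highest value of 4159 CPM. Mymx, myomixer, had 516 CPM against 1.29 CPM. In the 21868 Pdgfra-positive cells with a 3-gene sum of 0 the Mymk level was 0.388 CPM. The adhesion receptor genes Cdon and Cdh15 were higher too, at 190 and 99.6 CPM, whereas general adhesion and membrane genes of the list, such as Myof at 215 against 243 CPM and Jam2 at 85.6 against 99.1 CPM, differed by less than 4-fold. Of 11 tested genes of the dystrophin complex 6 were higher, each of which entered through the myogenic cells alone, with the muscle sarcoglycan gene Sgca at 59.6 CPM against 0.199 CPM and Dmd, dystrophin, at 95.1 CPM against 15.5 CPM.

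**Figure D2:**
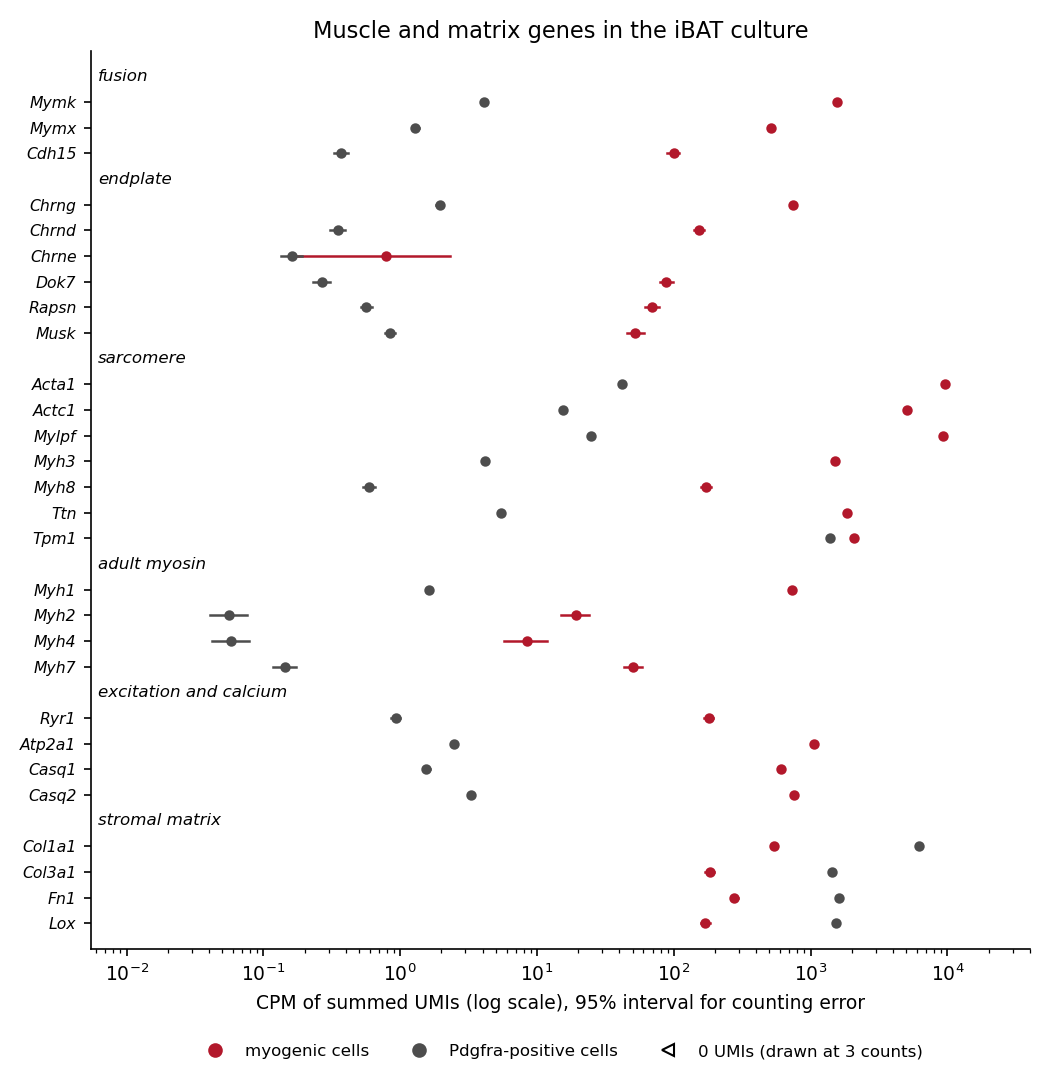
Level of 28 genes as CPM of summed UMIs (x axis, log scale) in the 187 myogenic cells (red) and the 25927 Pdgfra-positive cells (grey) of the iBAT library, with lines for the 95% interval of counting error. Muscle genes sit mostly 2 orders of magnitude or more to the right in the myogenic cells, Tpm1 and Chrne excepted, and the 4 matrix genes at the bottom sit to the left.

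Some of the transcription factors of the muscle program were higher as well. Of 15 regulators tested, 5 were 4-fold or more higher and none lower, and 4 of the 5 had entered through the myogenic cells alone. Without the limit 8 of the 21 listed were higher and 0 lower. Mef2c, a cofactor of Myod1 and Myog on muscle genes, had 1043 CPM (1010 to 1075) against 14.1 CPM, Mef2a 651 CPM against 67 CPM, and Klf5 297 CPM against 13.8 CPM. The early factor Myf5 and the late factor Myf6 were under the 50 CPM limit at 10.8 and 13.4 CPM. Id1 and Id3, which block MyoD family proteins, were not 4-fold different, at 83.3 against 83.8 CPM and 219 against 505 CPM. Of 9 satellite cell genes tested, 5 were higher, namely Itga7, a laminin receptor, at 432 CPM against 9.3 CPM, and Cdh15, Megf10, Fgfr4 and Ncam1. Of these 4 had entered through the myogenic cells alone, and without the limit 8 of the 20 listed were higher and 0 lower. The quiescence marker Calcr had 0 UMIs, and Pax7 itself was low at 26.8 CPM (21.8 to 32.5) from 102 UMIs in 45 cells.

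Pax7 and Myog divided the myogenic cells into unequal classes. So that depth did not set the share with a UMI, 10000 UMIs were drawn from each cell. After this thinning, 30 of the 187 cells (16%, 11.1 to 22.1%) had a Pax7 UMI and 151 (80.7%, 74.4 to 86.1%) a Myog UMI, against 0.212% and 0.852% of Pdgfra-positive cells and 0% and 0.654% of macrophage-rule cells, with unthinned shares of 24.1% and 82.9% in the myogenic cells. The macrophage-rule cells had a median depth of 21112 UMIs before thinning. Members were left out of them, so their 3-gene sum was at most 2, which limited their Myog share in advance. The Myog share is a description, since Myog helped to select the cells. It was 73.9% when a sum of 2 was enough and 85.6% with a sum of 10 or more. In 15 cells Pax7 alone was counted, in 15 both, in 136 Myog alone and in 21 neither, and 10 of these 21 were among the 13 cells near the selection limit. The classes are ranges of sparse counts and not cell types. Levels given by class use all UMIs. Counted that way, some cells of the Pax7 and Myog classes had UMIs of the other gene, and some cells with neither had UMIs of 1 of both. Median depth was 15431, 17033, 20433 and 26962 UMIs, and median mitochondrial shares were 10.3%, 11.3%, 13.7% and 6.25%, in that order, and the part of either in the differences below was not tested.

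Sarcomere genes were for the most part higher in the cells with Myog alone than in those with Pax7 alone. The classes were cut from the same counts, so the values describe them. In the 136 cells with Myog alone against the 15 with Pax7 alone, 4296 genes reached 50 CPM in at least 1 class, of which 280 (6.52%) were 4-fold or more higher and 294 (6.84%) lower, with a median log2 ratio of -0.38. Of 34 sarcomere genes 33 were higher and none lower, and 27 of the 34 had entered through the Myog class alone, while without the limit 33 of the 36 listed were higher. Of 15 calcium genes 11 were higher without the limit and 0 lower. Acta1 had 0 UMIs in the Pax7 class, 3575 CPM in the cells with both and 13001 CPM in the Myog class. Mymk had 7.95 CPM from 2 UMIs, 615 CPM and 2134 CPM in the same order, and Mef2c 3.97, 413 and 1415 CPM. The Mymk ratio of 268 had an interval from 74.3 to 2217, given the 2 UMIs. The sums of the cells with both markers did not describe the typical cell, since 4 of the 15 had 12615 to 15875 CPM of Acta1 and 980 to 3143 CPM of Mymk and the other 11 had 0 to 70.7 CPM and 0 to 243 CPM. Chrng and Musk were the endplate genes past 4-fold, whereas Cdh15 at 107 against 107 CPM and Itga7 at 485 against 532 CPM did not separate the classes.

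Several satellite cell genes had the opposite order. Of 13 satellite cell genes tested 6 were 4-fold or more lower in the Myog class and none higher, and 5 of the 6 had entered through the Pax7 class alone. Without the limit the count was 6 of 19 lower and 0 higher. The Notch receptor Notch3, which marks and maintains quiescent satellite cells, stood at 183 CPM (134 to 244) in the Pax7 class, 62.3 CPM with both and 5.87 CPM (3.36 to 9.54) in the Myog class. The Notch target Heyl had 83.5, 11.7 and 0.734 CPM, and the adhesion molecule Vcam1 83.5, 31.2 and 10.6 CPM. The chemokine receptor Cxcr4 and the proteoglycan Sdc3 were the other members lower, besides Fgfr4. The genes furthest down beyond the lists included Aqp5, a water channel, at 95.4 against 2.57 CPM, and Htr1b, a serotonin receptor, at 91.4 against 3.3 CPM. Of 7 Notch pathway genes tested between the classes 2 were lower, Notch3 and Heyl, which the satellite cell list also holds and which entered through the Pax7 class alone. Without the limit 3 of 12 were lower and 0 higher. Against Pdgfra-positive cells the Notch list held 1 gene past 4-fold of 4 tested, Hes6, a Notch antagonist that promotes muscle differentiation, at 377 against 6.71 CPM, and without the limit 3 of 12 were higher and 0 lower. Between the classes Hes6 stood at 127 CPM with Pax7 alone, 183 CPM with both and 497 CPM with Myog alone, 3.91-fold higher (2.75 to 5.73). The ligand genes Dll1 and Jag2 were below the limit at 40.7 and 37.3 CPM, with 0.421 and 0.183 CPM in Pdgfra-positive cells.

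Cell cycle genes were lower where Myog was counted. The cells were split by a Myog UMI after thinning to 10000 UMIs. Over 6 genes of the dividing cell (Mki67, Top2a, Cdk1, Ccnb1, Birc5 and Ube2c) the summed level was 1491 CPM in the 36 cells without one. It was 434 CPM in the 151 with one and 1238 CPM in Pdgfra-positive cells. The share of thinned cells with any such UMI was 86.1% (70.5 to 95.3%), 68.9% (60.8 to 76.2%) and 83.2%, and the intervals of the first pair overlap. Thinned to 5000 UMIs, the cells were split by Myog again, into 34 without and 153 with a Myog UMI. Their shares were 79.4% (62.1 to 91.3%) and 46.4% (38.3 to 54.6%), without overlap, but these sets differ from the first pair. With all their UMIs, the 36, the 151 and the Pdgfra-positive cells had shares of 91.7%, 82.1% and 94.6%. Without the 13 cells near the selection limit the first pair of shares, thinned to 10000 UMIs, was 84% and 68.5%. In the Myog class 8 of 11 cell cycle genes were 4-fold or more lower than in the Pax7 class, with Mki67, the classical proliferation marker, at 25.3 against 167 CPM and Top2a, a topoisomerase of dividing cells, at 67.6 against 417 CPM. Of the 8 genes 6 had entered through the Pax7 class alone, and without the limit 8 of the 12 listed were lower and 0 higher. The cells with both markers had 1776 CPM of the 6 genes when summed, but their median cell had 212 CPM, against 549 CPM with Pax7 alone and 90.2 CPM with Myog alone.

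The list of cell cycle exit holds cyclin genes beside inhibitors, so its counts have no single reading. Between the classes 3 of 9 tested were 4-fold or more higher with Myog alone, namely Cdkn1a, Cdkn1c and Gadd45a. The 2 lower were the inhibitor gene Cdkn2a and the cyclin gene Ccnd1, with a median log2 ratio of 0.04 over the 9. Of 8 tested genes of cell cycle exit 5 were 4-fold or more higher in the myogenic cells than in Pdgfra-positive cells and 1 lower, and without the limit the counts over the 11 listed were also 5 and 1. Cdkn1a, the inhibitor p21, had 2033 CPM (1988 to 2079) against 312 CPM, 6.51-fold higher, and was counted in 185 of 187 cells. Its level was 489 CPM in the Pax7 class, 1044 CPM with both and 2604 CPM in the Myog class. The inhibitor gene Cdkn2a was lower instead, at 71.5, 54.5 and 12.8 CPM (5.57-fold, 2.97 to 10.1), and Cdkn1b, the inhibitor p27, stood at 91.4, 81.8 and 61.3 CPM. Cdkn1c, the inhibitor p57, had 460 CPM against 3.04 CPM but was counted in 90 cells, with 57.1% of its UMIs in the 10 highest. The retinoblastoma gene Rb1, the cyclin gene Ccnd3 and the stress gene Gadd45a were the other 3 higher, at 133, 965 and 476 CPM. The cyclin gene Ccnd1, a driver of division, had 1256 CPM in the Pax7 class and 149 CPM in the Myog class (8.45-fold lower, 7.27 to 9.81), while over all myogenic cells it did not differ 4-fold from the Pdgfra-positive cells. Ccnd2 was the 1 gene lower, at 157 against 735 CPM.

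**Figure D3:**
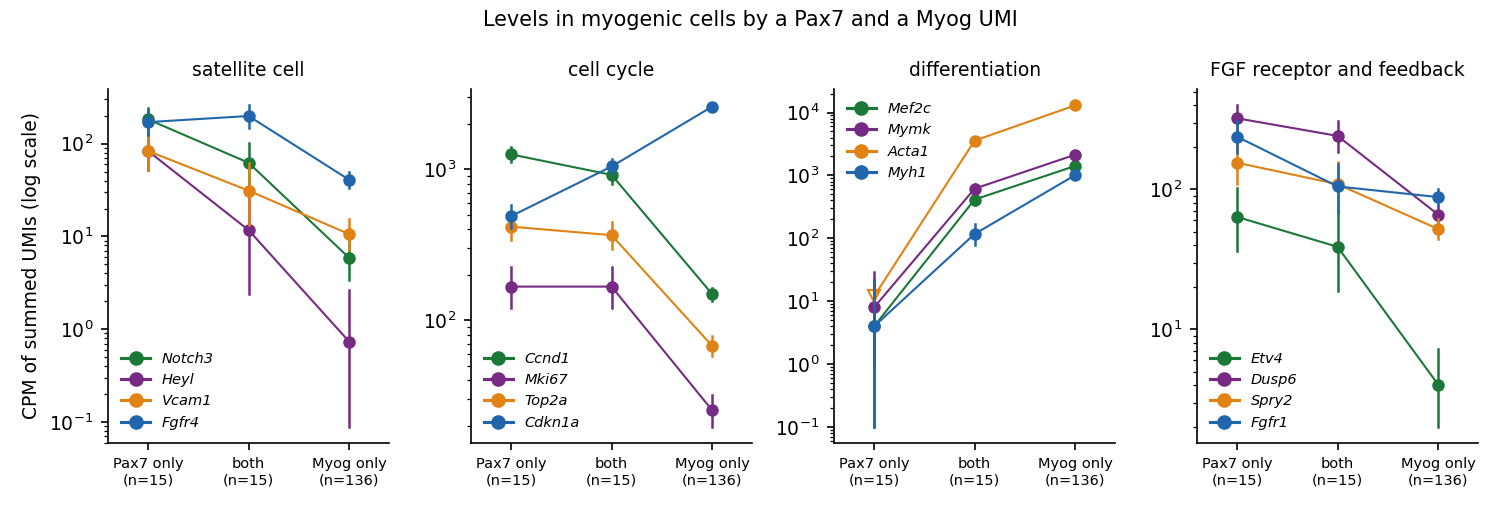
CPM of summed UMIs (y axis, log scale, a separate range in each panel) of 16 genes in the myogenic cells with a Pax7 UMI alone, with both and with a Myog UMI alone after thinning to 10000 UMIs, with lines for the 95% interval of counting error. The open triangle is a gene with 0 UMIs, drawn at 3 UMIs. The satellite cell, division and FGF genes shown are lower with Myog alone than with Pax7 alone, and Acta1, Mymk, Mef2c, Myh1 and Cdkn1a are higher.

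**Figure D4:**
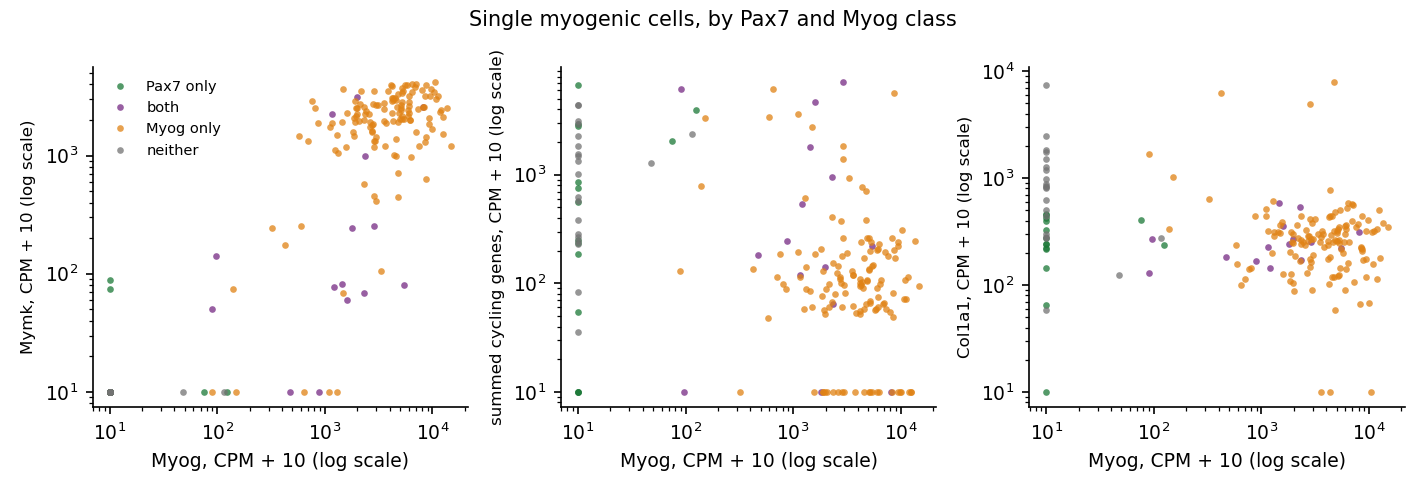
Each point is 1 of the 187 myogenic cells, with its Myog level (x axis) against Mymk, the summed 6 cycling genes and Col1a1 (y axes), all as CPM + 10 on log scales, so that 0 lies at 10. Colours give the Pax7 and Myog class after thinning, while the axes use all UMIs. Mymk is high in most cells with high Myog, and cells at the left edge, without a Myog UMI, mostly have Mymk at 0.

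Genes linked to the growth of muscle showed no common direction. Of 8 tested 2 were 4-fold or more higher and 2 lower, and without the limit 4 and 2 of the 15 listed. The imprinted noncoding RNA gene H19, abundant in muscle and in embryonic tissue, had 9620 CPM (9522 to 9719) against 37.5 CPM and was counted in 179 cells, with 3056 CPM in the Pax7 class, 10140 CPM with both and 12060 CPM in the Myog class. Its neighbour Igf2, an insulin-like growth factor, had 11 CPM and was below the limit. Igfbp5, which binds insulin-like growth factors, was also higher than in Pdgfra-positive cells, at 582 against 95.7 CPM, but within the myogenic cells it was 2444 CPM in the Pax7 class and 356 CPM in the Myog class. Igfbp4 and the satellite cell activator Hgf were the 2 lower, at 72.8 against 766 CPM and 6.57 against 59.3 CPM. Fst, follistatin, an inhibitor of myostatin, was level overall at 223 against 218 CPM, with 0 UMIs in the Pax7 class and 252 CPM in the Myog class. Mstn, myostatin itself, had 14 UMIs.

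Brown adipocyte genes were few. Of 26 listed, 23 were under 50 CPM in both groups, and Elovl3, Kcnk3, Bmp7, Otop1 and Cpt1b had 0 UMIs in the myogenic cells. Ucp1, the uncoupling protein of thermogenic fat, was counted once, 0.263 CPM (0.00665 to 1.46), against 0.337 CPM in Pdgfra-positive cells, so a difference was not detectable at this depth. The share of thinned cells with a Ucp1 UMI was 0.535% (0.0135 to 2.94%) against 0.316%. Cidea, a lipid droplet protein of brown fat, had 3 UMIs, and the brown lineage factors Prdm16, Ebf2 and Lhx8 stood at 1.58, 17.1 and 0.525 CPM against 5.32, 52.8 and 14.7 CPM. Zic1, expressed in brown preadipocytes and in muscle precursors of the trunk, had 9.98 CPM against 19.6 CPM.

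The 2 genes of that list past both the limit and 4-fold were ones that striated muscle also uses, and both entered through the myogenic cells alone. Without the limit 7 of the 26 listed were 4-fold or more higher and 1 lower. Cox8b, a cytochrome oxidase subunit of heart, muscle and brown fat (chr7:140477069-140480359), had 59.1 CPM (51.6 to 67.3) against 0.141 CPM, 419-fold higher (331 to 533). The 76 Pdgfra-positive cells with a 3-gene sum of 40 or more held 75 Cox8b UMIs, and those with a 3-gene sum of 0 had 0.0374 CPM. Cox8b was counted in 74 cells, with a highest level of 606 CPM, and the myogenic cells held 68.2% of its UMIs in the iBAT library. In the classes it had 0 UMIs with Pax7 alone, 38.9 CPM with both, 78.9 CPM with Myog alone and 0 UMIs with neither. Fabp3, the heart and muscle fatty acid-binding protein, had 163 CPM against 16.9 CPM, 9.66-fold higher (8.9 to 10.5), with 0 UMIs in the Pax7 class and 221 CPM in the Myog class. Cox7a1, another oxidase subunit of both tissues, and the mitochondrial coactivator Ppargc1b stayed below the limit at 21.5 and 37.8 CPM, against 3.13 and 2.27 CPM. Muscle energy genes pointed the same way, with 11 of the 12 listed 4-fold or more higher when no limit was set, and 7 of the 8 past it, which all reached it through the myogenic cells alone. Among them Mb, myoglobin, had the largest ratio of the 4152 genes in the comparison with all Pdgfra-positive cells, 1277 CPM against 2.25 CPM (567-fold, 536 to 600), while Ldha, lactate dehydrogenase, did not differ 4-fold at 625 against 712 CPM. In Pdgfra-positive cells with a 3-gene sum of 0 the Mb level was 0.262 CPM. It was counted in 120 of the myogenic cells, with a median of 455 CPM and a highest value of 10536 CPM.

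Adipogenic genes were low in comparison with the Pdgfra-positive cells. Of 7 tested 4 were 4-fold or more lower, among them Cebpa at 9.98 against 70.2 CPM, Cebpd at 28.6 against 190 CPM, both transcription factors of adipogenesis, and Lpl, lipoprotein lipase, at 46.8 against 346 CPM. These 3 entered through the Pdgfra-positive cells alone, and without the limit 6 of the 16 listed were lower and 2 higher. Adipoq and Plin1, defining genes of mature adipocytes, had 0 UMIs. The 2 higher were Cd36, a fatty acid transporter, and Car3, carbonic anhydrase III, which muscle and fat both express. Car3 had 60.4 CPM against 1.38 CPM, but it was counted in 24 cells, and 2 of them held 43.9% of its UMIs. For Cd36 the 2 cells that met the macrophage rule held 83 of 210 UMIs.

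**Figure D5:**
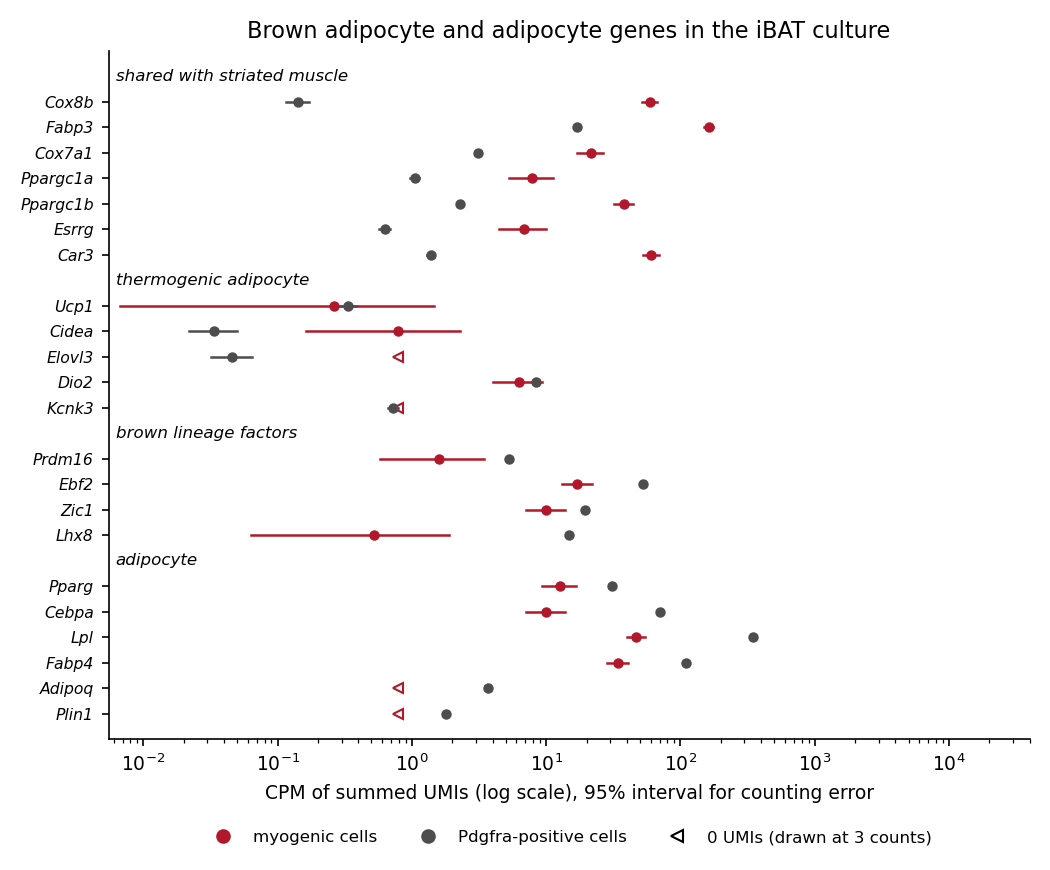
Level of 22 brown adipocyte and adipocyte genes as CPM of summed UMIs (x axis, log scale) in the myogenic cells (red) and the Pdgfra-positive cells (grey), with lines for the 95% interval of counting error. Open triangles are genes with 0 UMIs, drawn at the level of 3 UMIs (0.788 CPM). Cox8b and Fabp3 lie far to the right in the myogenic cells, the Ucp1 points overlap, and the lineage factors, Cebpa and Lpl lie to the left.

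Genes of FGF signalling differed in kind between the cells. FGF receptors are tyrosine kinases that need proteoglycan coreceptors, and Sprouty, Spred, Dusp and Etv genes are induced by the pathway and, except for the Etv factors, dampen it. Of 9 tested receptor and coreceptor genes 2 were 4-fold or more higher, Fgfr4, the receptor of myoblasts, at 56.2 CPM (48.9 to 64.3) against 0.266 CPM and Gpc1, a glypican, at 211 against 45.7 CPM. Both entered through the myogenic cells alone, and without the limit 3 of the 14 listed were higher and 0 lower. Fgfr1 was counted in 133 cells and stood at 126 against 282 CPM, 2.23-fold lower (2.04 to 2.45). Fgfr4 had 171 CPM in the Pax7 class, 199 CPM with both and 40.8 CPM in the Myog class, and Fgfr1 238, 105 and 88.1 CPM. Of the ligands, Fgf2 and Fgf7 were 4-fold or more lower, at 36.2 against 190 CPM and 44.9 against 273 CPM, and the 13 cells near the selection limit held 60.1% of the Fgf2 and 42.1% of the Fgf7 UMIs. Without those cells the levels were 16.1 and 28.9 CPM. Both genes entered through the Pdgfra-positive cells alone, and without the limit 3 of the 14 ligands were lower and 5 higher. Fgf10 was 3.81-fold lower at 20.2 against 77.1 CPM, with 16.1 CPM when the 13 cells were left out. Fgf4 and Fgf8 had 0 UMIs. Fgf21, an endocrine ligand, and Fgf13, an intracellular one, were below the limit at 40.7 and 39.7 CPM, with 0.5 and 2.04 CPM in Pdgfra-positive cells, and 2 cells held 34.2% of the Fgf21 UMIs.

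None of the 7 tested feedback genes reached 4-fold against the Pdgfra-positive cells (median log2 ratio -0.03). Within the myogenic cells 4 of 10 tested were lower in the Myog class than in the Pax7 class, and none higher. They were Dusp5, Dusp6, Etv1 and Etv4, of which 3 had entered through the Pax7 class alone, and without the limit 4 of the 12 listed were lower and 0 higher. Dusp6, the phosphatase that turns off ERK, had 322 CPM (256 to 400) in the Pax7 class, 241 CPM with both and 66.1 CPM (56.8 to 76.5) in the Myog class, and Etv4 63.6, 38.9 and 4.04 CPM. Spry2 had 155, 109 and 52.1 CPM in the same order. As the treatments were pooled, their share in each class is not known here.

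Of the factors of body position and lineage, 3 are given here, all under 50 CPM in both groups. Lbx1, a factor of migrating muscle precursors, was below the limit at 39.7 CPM against 0.118 CPM and was counted in 83 cells. The trunk factors En1 and Pax3 stood at 17.6 against 47.5 CPM and 7.88 against 10.2 CPM.

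Matrix genes were the largest group lower in the myogenic cells. Of 22 tested 17 were 4-fold or more lower and none higher (median log2 ratio -2.68), with 5 of the 17 entered through the Pdgfra-positive cells alone, and without the limit 17 of the 26 listed were lower and 0 higher. Col1a1 had 541 CPM (518 to 565) against 6242 CPM, 11.5-fold lower, with a median of 265 CPM per cell and a highest value of 7874 CPM. The 13 cells near the selection limit held 33.7% of its UMIs, and without them its level was 399 CPM. Lox, which crosslinks collagen, had 169 against 1543 CPM, and Fn1, fibronectin, 276 against 1614 CPM. Lama2 at 56.2 against 84.8 CPM and Sparc at 1728 against 6094 CPM were among the 5 tested genes that differed by less than 4-fold. The basement membrane collagen genes Col4a1 and Col4a2 were among the 17 lower. Beyond the lists the genes furthest down were Sfrp2, a secreted Wnt modulator, at 2.1 against 69.3 CPM (33-fold lower, 16.7 to 76.4) and Cxcl5, a chemokine, at 3.41 against 91.4 CPM. Of 5 tested genes of interferon and inflammation (median log2 ratio -1.50) Ccl7 was 4-fold or more lower, at 130 against 533 CPM. Of its UMIs 10 cells held 86.5%, the 13 cells near the selection limit 38.5%, and the 2 cells that met the macrophage rule 102 of 496. Without the limit of 50 CPM 7 of the 17 genes found were lower and 1 higher. The genes furthest up beyond the lists were Csrp3, a muscle LIM protein, at 117 against 0.241 CPM, Tceal7 at 124 against 0.27 CPM, Klhl40, a stabiliser of thin filaments, at 63 against 0.141 CPM, R3hdml at 75.1 against 0.169 CPM, and Smpx, a small muscle protein, at 262 against 0.596 CPM.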

How the data were processed

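Both deposited files contain UMI counts, not normalized, that the authors made on a commercial cloud pipeline from BD Rhapsody whole-transcriptome libraries. The submitters' processing notes name build mm39 and Seurat 5.0.0, and the aligner and annotation are not given in the sources used here. The iBAT library held 28636 barcodes with 815235820 UMIs and the iWAT library 29962 barcodes with 503611913 UMIs, so that counting intervals are narrow for abundant genes and wide for genes of few UMIs. Cells with more than 200 and fewer than 7500 genes and under 30% mitochondrial UMIs were kept.

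The members, the gene lists and the alternatives were chosen with earlier results of these data known. UMIs were summed over cells and scaled to CPM (UMIs per 1000000), with exact Poisson intervals. Ratios have exact conditional binomial intervals and shares Clopper-Pearson intervals, all for counting error only. A gene counted as higher or lower at 4-fold, given 50 CPM or more in either group, and a group at 0 UMIs entered at 3 UMIs. Summed counts over 1 library per depot allow no test. The text names genes of the 21 lists (322 of 323 listed genes were found), the 12 genes furthest up and the 12 furthest down against the Pdgfra-positive cells, and the 8 furthest up and down between the Myog and Pax7 classes. Doublets were called with Scrublet in scanpy 1.11.5 at a rate of 0.08 and kept, except in an alternative. Cells were thinned to 10000 UMIs before shares were compared. The computation ran in Python 3.11.15 with numpy 2.4.6 and scipy 1.17.1 and was tested on simulated data. Gene coordinates are from the GENCODE annotation of GRCm39, the assembly also named mm39, matched by symbol. Results for some listed genes are not reported here.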

Additional observations from a re-analysis of the deposited data

Results flagged for a closer look

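In the iWAT library, which entered no comparison here, 40 cells met the same selection. Of these, 5 had 10 or more UMIs of the selecting genes together with UMIs of Mymk and Ttn, which the selection did not use. In the iBAT library 76 Pdgfra-positive cells, outside the selection, had 40 or more UMIs of Myod1, Myog and Chrna1. They held 22.3% of the library's Acta1 UMIs and 21.5% of its Mb UMIs, genes that the selection did not use. Both sets of cells were picked out as muscle signal in cells that the comparisons did not use as myogenic cells. Scrublet called 18 of the 76 doublets, and whether the other cells were mixtures was not tested.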

How the results depend on the processing

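With no limit on Pdgfra 869 cells were members, and 56 of 3697 genes tested were 4-fold higher and 1 lower. Of these cells 4.49% had a Pax7 UMI and 30.8% a Myog UMI. The genes 4-fold lower numbered 88 of 4064 tested with a sum of 2 or more, 338 of 4200 with 10 or more and 388 of 4212 with 20 or more. They were 97 of 4081 with 1 Pdgfra UMI allowed and 119 of 4152 with over 500 genes and under 15% mitochondrial UMIs. The number of genes tested changed with the limit on CPM. With a limit of 10 CPM 628 of 9496 genes were higher and 473 lower. With 200 CPM the counts were 108 and 85 of 1077, and without a limit 2248 and 845 of 17945. The share with a Myog UMI was 73.9% with a sum of 2 or more, 89.7% with 20 or more and 72.9% with the stricter cell filter. Thinned to 5000 UMIs, 9.63% had a Pax7 UMI. With the cells split by Myog again at that depth, 46.4% of those with Myog and 79.4% of those without it had a cycling UMI. Without thinning 24.1% had a Pax7 UMI and 82.6% of the cells with Myog a cycling UMI, the last over the 155 cells with a Myog UMI before thinning. The sum of 20 and the comparison with cells without UMIs of the 3 genes were chosen after seeing the data.

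Median log2 ratios of 7 lists changed sign, from -0.45 for Notch, -0.37 for growth regulators, -0.86 for cell cycle, 3.27 for brown adipocyte genes, -2.39 for FGF ligands, -0.03 for FGF feedback and 1.61 for position factors. Without the Pdgfra limit they were 0.23 for Notch, 0.05 for cell cycle, -0.33 for brown adipocyte genes, 0.07 for FGF ligands and 0.51 for FGF feedback genes. With the stricter cell filter Notch was 0.80 and FGF feedback 0.19. At 10 CPM, 200 CPM and no limit the growth regulators were 0.07, 1.32 and 0.79 and Notch 0.31, 2.48 and 0.46. FGF ligands were 0.57 without a limit, and position factors -0.83 at 10 CPM and -0.68 without a limit. FGF feedback was 0.14 when centred on the median of all genes, 0.00 as a mean of single-cell CPM and 0.03 against cells without UMIs of the 3 genes. The causes were not tested. The sarcomere, endplate, calcium, fusion and matrix lists kept their direction under the alternatives run. No paired analysis was possible because there is 1 library per depot and no test. Depth limits the classes of 15 cells most: the exact upper limit for a gene with 0 UMIs is 14.7 CPM with Pax7 alone and 14.4 CPM with both.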
